A study of Homo sapiens with 16 samples.

Results

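The genes described here lie along the distal long arm of human chromosome 16, from MAF to the end of the arm. The list holds 59 genes of the 33121 entries of the count table, in chromosome order from MAF to GAS8. It was drawn up because the stretch lay lower in cells labelled as SLC30A10 knockout than in their control cells. The values of that comparison thus chose the members and are given as a description, and calls of members made there support nothing. Of the 59 genes, 54 had a mean of 10 counts or more over all libraries and are followed here. All 54 also passed the expression filter.

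RNA was sequenced from HAP1 cells, a near-haploid human line that grows attached and descends from chronic myeloid leukaemia cells. The labels give 4 groups of 4 libraries. The SLC30A10 knockout carries the genotype SLC30A10_delta, a deletion of the gene for a manganese exporter, and its control set carries SLC30A10+/+. The second knockout carries a deletion of another gene, which is not reported here, and has a wild-type control set of its own. Both control sets share a cell line identifier, and each knockout has its own. No treatment, time, clone number or sequencing batch was given, and nothing states that the libraries of a group came from separate cultures. The p-values therefore measure the spread between these libraries, which may be technical.

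Each library held between 16058856 and 16648151 counts. Levels are given as counts per 1000000 of the scaled library size (CPM), and 3 counts, the floor used here, correspond to 0.181 to 0.187 CPM. SLC30A10 itself had 0 to 11 counts in the 16 libraries, with a mean of 0.418 CPM in the SLC30A10 knockout and 0.472 CPM in its control, too few reads to check the deletion. Both fusion partners of chronic myeloid leukaemia were read in every library, BCR with 317 to 399 counts and ABL1 with 202 to 336. Counts per gene cannot show whether these genes are fused. The blood markers PTPRC, SPI1 and GATA1 stayed at 0 to 3 counts, the epithelial markers CDH1 at 0 to 5 and EPCAM at 4 to 26. Of the fibroblast collagens, COL1A1 had 481 to 699 counts and COL1A2 had 0 to 4. The mesenchymal filament gene VIM stood at 357 CPM in the SLC30A10 knockout and 630 CPM in its control, and its part in the values below was not tested.

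Genes that lie side by side on a chromosome need not share a function. What neighbours share is their physical place: they are copied, lost or gained together, and the RNA made from a gene usually follows the number of its copies, although feedback can hold some genes near their usual level. DNA copies were not measured in these libraries, and their part in the values below was not tested. Distal 16q is dense in genes that most cells use. They include DNA replication factors (GINS2, CDT1), a centromere protein (CENPN), a DNA repair gene (FANCA), enzymes of purine salvage (APRT) and of lysosomal breakdown (GALNS), and the autophagy protein MAP1LC3B, along with genes of narrower use such as MAF, a transcription factor of lens, immune and plasma cells, and TUBB3, a tubulin typical of neurons.

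The starts of these genes are shown for the members that the results turn on. RefSeq (GRCh38.p14) gave a window from 250 bases before to 50 bases after the start for 50 of the 59 members. The windows were rich in the dinucleotide CG, with a median of 38.5 per window against 14 over all 35116 windows of the table. The letters GGGCGG (GC box), read on both strands, were found in 90% of the members' windows and 45% of all windows. CCGGAAG, an ETS-type sequence, was in 36% against 10.3%. CCAAT was in 24% against 34.6%, and TATAAA in 4.0% against 11.5%. The 35116 windows were not limited to expressed genes, so this comparison does not set distal 16q apart from expressed genes elsewhere. In the windows below, capitals mark these 4 letter strings on either strand.
GALNS, chr16:88856898-88857197, minus strand, the gene with the lowest ratio of the SLC30A10 knockout to its own control set: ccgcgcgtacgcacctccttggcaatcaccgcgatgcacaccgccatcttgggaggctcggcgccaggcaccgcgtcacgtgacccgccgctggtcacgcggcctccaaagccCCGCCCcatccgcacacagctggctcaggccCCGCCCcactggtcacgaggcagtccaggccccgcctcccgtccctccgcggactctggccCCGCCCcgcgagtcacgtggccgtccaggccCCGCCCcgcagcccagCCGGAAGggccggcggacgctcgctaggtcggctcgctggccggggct
ANKRD11, chr16:89490512-89490811, minus strand, a gene that lay lower in the SLC30A10 knockout and rose in the second: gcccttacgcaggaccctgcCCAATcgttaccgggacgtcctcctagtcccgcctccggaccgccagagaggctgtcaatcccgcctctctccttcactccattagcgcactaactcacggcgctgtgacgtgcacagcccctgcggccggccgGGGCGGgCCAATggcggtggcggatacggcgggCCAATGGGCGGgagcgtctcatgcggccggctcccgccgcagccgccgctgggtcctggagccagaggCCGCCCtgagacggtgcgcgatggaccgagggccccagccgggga
MAF, chr16:79600688-79600987, minus strand, first of the stretch and the gene that fell most in the second knockout: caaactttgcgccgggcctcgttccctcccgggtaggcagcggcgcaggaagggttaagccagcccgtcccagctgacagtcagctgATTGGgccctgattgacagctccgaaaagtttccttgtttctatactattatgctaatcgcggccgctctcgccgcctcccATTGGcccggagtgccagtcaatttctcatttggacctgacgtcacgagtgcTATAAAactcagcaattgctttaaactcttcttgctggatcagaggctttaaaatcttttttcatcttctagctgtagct
TUBB3, chr16:89921675-89921974, plus strand, a gene with a lower level in both knockouts: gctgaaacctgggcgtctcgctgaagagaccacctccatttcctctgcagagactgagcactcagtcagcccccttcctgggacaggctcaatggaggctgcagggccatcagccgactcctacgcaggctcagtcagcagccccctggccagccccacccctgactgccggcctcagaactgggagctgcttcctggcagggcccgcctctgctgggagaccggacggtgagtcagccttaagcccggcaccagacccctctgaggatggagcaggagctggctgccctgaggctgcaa
The GALNS window holds 39 CG, 4 GC boxes and 1 ETS-type match, and much of it is shared with TRAPPC2L, which starts 180 bases away on the other strand. ANKRD11 has 34 CG, 3 GC boxes and 3 CCAAT matches. MAF has 16 CG, no GC box, 2 CCAAT matches and a TATAAA match, one of only 2 members with the latter. TUBB3 has 9 CG and none of the 4 strings in the window printed. A single window was read per gene, so other starts of TUBB3 or of the other genes are not covered. A match is a string of letters and says nothing of what binds there.

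The level of distal 16q in the SLC30A10 knockout was examined first. The median member stood at 66.83% of its level in the control set, a median log2 ratio of -0.58, against -0.0048 over all 15569 tested genes. Of the 54 members, 52 had a log2 ratio below 0. An adjusted p under 0.05 in the direction of lower was reached by 50 members (edgeR quasi-likelihood test, Benjamini-Hochberg), where 20.2% of all tested genes were called lower, and no member was called higher. Libraries of knockout and control did not overlap, with the knockout below, for 47 members, beside 18.6% of all genes. No member had the knockout above without overlap, beside 19.7% of all genes, and 21.2% of all genes were called higher. Since this contrast chose the genes, nothing is read from these counts.

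The shift was alike in all 4 knockout libraries. Summed over the 59 members, the control libraries held 3565, 3675, 3725 and 3644 CPM and the knockout libraries 2477, 2425, 2552 and 2501 CPM. The knockout libraries thus lie apart from the control libraries and close to each other. The median member, set against its mean in the control set, stood at a log2 ratio of -0.56, -0.61, -0.52 and -0.57 in knockout libraries 1 to 4. In bulk RNA, less RNA from these genes in every cell and loss of it in a part of the cells cannot be told apart.

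**Figure D1:**
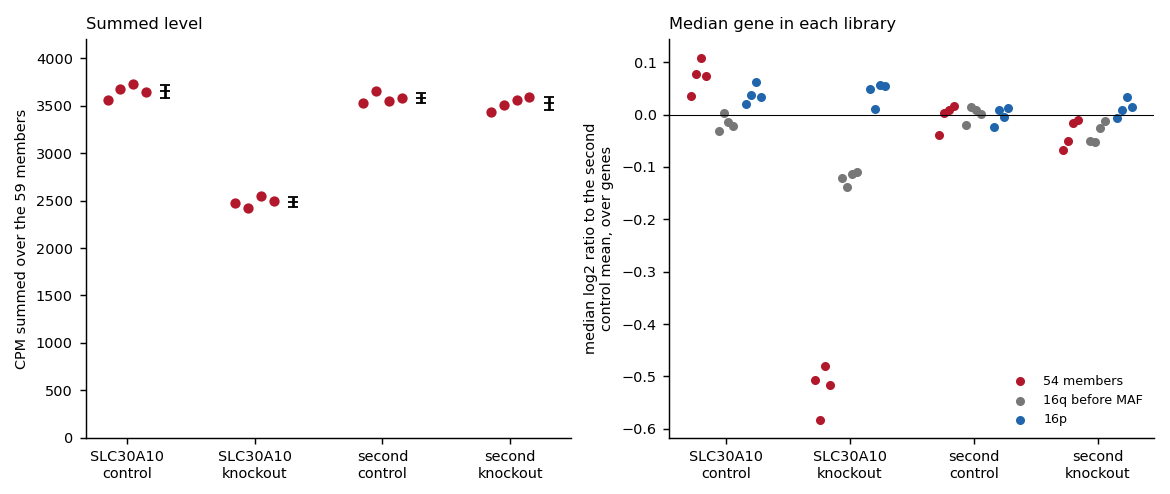
Level of distal 16q in each library. Left: CPM summed over the 59 members, with points for the 4 libraries of each group and bars for mean ± SD. Right: median log2 ratio to the mean of the second control set in each library, over 54 members (red), the tested genes of 16q before MAF (grey) and of 16p (blue). The SLC30A10 knockout libraries sit at 2425 to 2552 CPM, below the 12 others.

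The values were then followed along the arm (the plot of changes in chromosome order). MAF lies at chr16:79202622-79600737 and GAS8 at chr16:90019633-90044960, and the genes of the stretch span 10.97 Mb. In successive windows of 2 Mb from MAF on, all tested genes, members or not, had median log2 ratios of -0.62 (n = 6), -0.66 (n = 6), -0.54 (n = 15), -0.56 (n = 9), -0.55 (n = 25) and -0.55 (n = 26). No window stood apart from the others. Across the 54 members, Spearman's rho of the log2 ratio with position was -0.192, with mean CPM 0.0244 and with gene length 0.0433. These are descriptions across genes, which share libraries and are not replicates.

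The genes just before MAF were examined in the same way. WWOX, the last tested gene before MAF and a gene that spans a fragile site, had 7.49, 6.86, 6.83 and 7.01 CPM in the control and 7.89, 8.02, 7.42 and 7.22 CPM in the SLC30A10 knockout, and these groups overlapped. The 20 tested genes before MAF had a median log2 ratio of -0.032, with 5 called lower and 2 higher. The lowest of the 20 was MLKL, an effector of necroptosis, at -1.17 ± 0.15 (SE). All 203 tested genes of 16q before MAF had a median of -0.096, with 71 lower and 18 higher (35% and 8.87%, beside 20.2% and 21.2% of all genes). The 355 tested genes of 16p had a median of -0.0081, with 57 lower and 64 higher. The 33 other tested genes from MAF on had a median of -0.51, with 21 lower and 2 higher. COX4I1, a cytochrome oxidase subunit that starts beside EMC8, is among those lower, at -0.51 ± 0.05 (log2, SE).

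**Figure D2:**
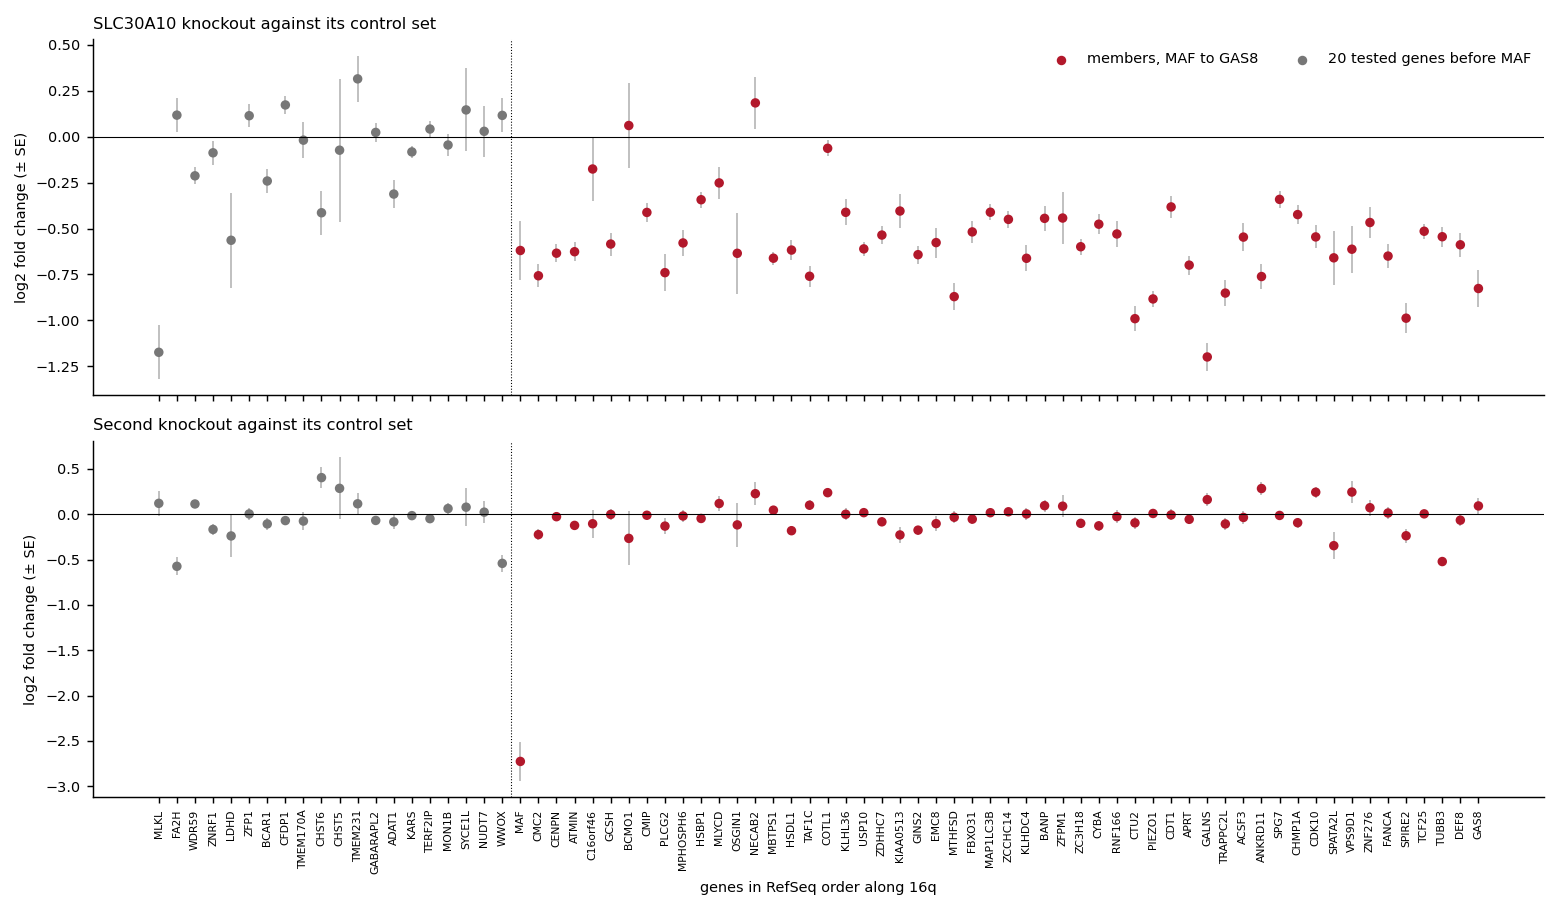
Log2 fold change ± SE of the 54 members (red) and of the 20 tested genes before MAF (grey), in RefSeq order along 16q, in the SLC30A10 knockout (top) and the second knockout (bottom), each against its own control set. At the top, the members lie around a median of -0.58 from MAF on, while the genes before MAF lie around -0.032. At the bottom, MAF stands alone at -2.73.

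The members spread around their median. Between the quartiles the ratios ran from 63.25% to 73.55% of control, 31 of the 54 members had a ratio between 0.6 and 0.75, 11 lay below 0.6 and 12 above 0.75. For the 49 members whose mean reached 5 CPM, the log2 ratios had an SD of 0.23 and a median SE per gene of 0.063. The same 49 genes had an SD of 0.15 in the second knockout and of 0.19 between the control sets, where their medians lay near 0.

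**Figure D3:**
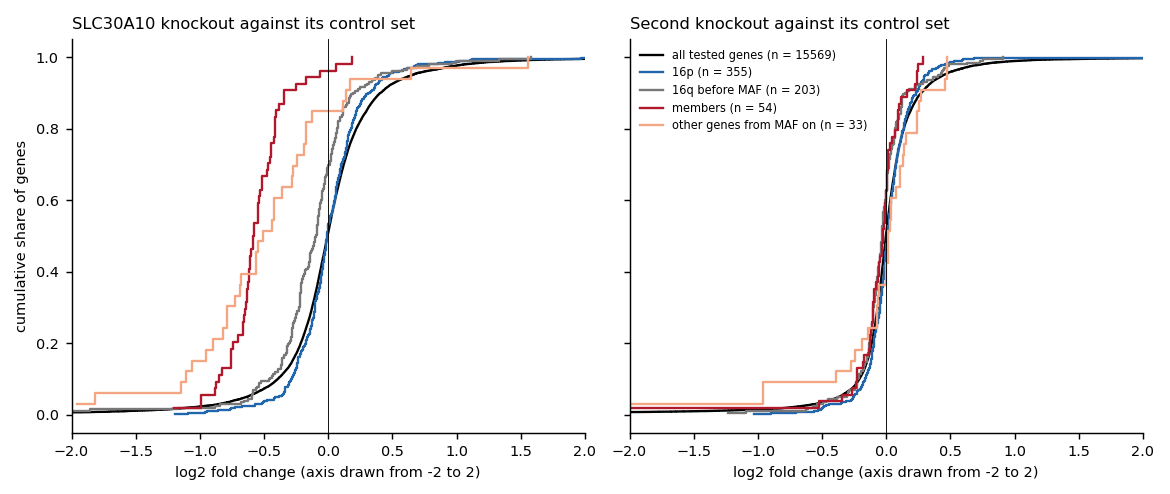
Cumulative share of genes by log2 fold change in the SLC30A10 knockout (left) and the second knockout (right), each against its control set, for the members, the other genes from MAF on, 16q before MAF, 16p and all tested genes. On the left the members are displaced as a group to a median of -0.58, and on the right their curve runs along that of all genes, with a median of -0.027. The axis is drawn from -2 to 2, so values beyond are not shown.

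The genes were then grouped by what their products do. Counts of lower genes in these groups repeat the choice of the members and say nothing of function. Over all tested genes 20.2% were called lower. All 7 members of replication and cell division lay lower in the SLC30A10 knockout, with a median log2 ratio of -0.63. GINS2 is a subunit of the helicase complex that opens DNA at the replication fork. Its control libraries had 108, 112, 121 and 108 CPM, and the knockout libraries had 69.9, 72.9, 70.8 and 74.1 CPM, a log2 ratio of -0.64 ± 0.05 (SE). The groups of GINS2 lie well apart. CDT1 licenses replication origins. It had 156, 159, 157 and 175 CPM in the control and 120, 117, 133 and 125 CPM in the knockout, at -0.38 ± 0.06 (SE). Against the second control set the order turned, with CDT1 at -0.74 ± 0.06 and GINS2 at -0.63 ± 0.05 (SE). CENPN (log2 ratio -0.63 ± 0.05, SE), which binds the centromeric nucleosome, FANCA (-0.65 ± 0.06), of the Fanconi anaemia repair complex, and ATMIN (-0.63 ± 0.05), a cofactor of the kinase ATM, stood near the median of the stretch. CHMP1A, of the membrane-cutting ESCRT machinery that acts in cell division, stood at -0.42 ± 0.05, and CDK10, a cyclin-dependent kinase, at -0.55 ± 0.06.

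Of the 14 genes listed under transcription, chromatin and RNA, 13 were tested and all 13 lay lower, with a median of -0.58. ANKRD11 encodes a chromatin regulator. Its libraries held 241, 257, 249 and 254 CPM in the control and 147, 144, 152 and 147 CPM in the knockout, a log2 ratio of -0.76 ± 0.07 (SE). HSBP1, a small protein that binds heat shock factor, moved less, from 196, 190, 202 and 191 CPM to 156, 149, 155 and 154 CPM, a log2 ratio of -0.34 ± 0.04 (SE). MAF had 5.06, 5.28, 5.73 and 4.51 CPM in the control and 4.23, 2.92, 2.94 and 3.30 CPM in the knockout, -0.62 ± 0.16 (SE). For MAF, knockout library 1 came close to the lowest control library, and the groups did not overlap. TAF1C, a subunit of the selectivity factor of RNA polymerase I, stood at -0.76 ± 0.06 (SE). CTU2, which modifies the wobble base of tRNAs, stood at -0.99 ± 0.07 (SE). MPHOSPH6, which works with the RNA exosome, stood at -0.58 ± 0.07, and ZC3H18, which links capped RNA to its decay, at -0.60 ± 0.04. The nuclear matrix protein BANP stood at -0.44 ± 0.07, TCF25 at -0.51 ± 0.04, and the zinc finger genes ZCCHC14 and ZNF276 at -0.45 ± 0.05 and -0.47 ± 0.09 (SE). OSGIN1, a target of the oxidative stress response, was counted in this group although the label does not describe it. It had 2.01, 2.97, 3.96 and 2.80 CPM in the control and 2.11, 1.18, 2.51 and 1.74 CPM in the knockout, at -0.63 ± 0.22 (SE). ZFPM1, a cofactor of GATA factors, had 6.76, 6.68, 6.22 and 7.80 CPM in the control and 3.67, 4.60, 6.50 and 5.42 CPM in the knockout, at -0.44 ± 0.14 (SE). For these last genes, OSGIN1 and ZFPM1, single libraries overlapped between the groups although both were called lower.

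All 5 mitochondrial members lay lower, with a median of -0.55. CMC2 is linked to cytochrome oxidase assembly. It had 38.7, 37.2, 33.96 and 36.1 CPM in the control and 23.9, 20.1, 21.8 and 20.5 CPM in the knockout, at -0.76 ± 0.06 (SE). SPG7, a protease subunit of the inner membrane, had 87.3, 89.5, 83.7 and 82.97 CPM in the control and 69.9, 65.6, 69.04 and 66.7 CPM in the knockout, at -0.34 ± 0.05 (SE). The groups of both genes were apart, and the shift of SPG7 was among the 5 smallest of the members with at least 5 CPM. GCSH, the carrier protein of glycine cleavage, stood at -0.58 ± 0.06 (SE), ACSF3, a malonyl-CoA synthetase, at -0.55 ± 0.08, and MLYCD, malonyl-CoA decarboxylase, at -0.25 ± 0.09. The MLYCD groups overlapped, and its call was lost without knockout library 1, knockout library 2 or control library 3. Since this contrast chose the gene, the call of MLYCD is a description only.

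All 8 members of membrane traffic, the endoplasmic reticulum, the Golgi, autophagy and the lysosome lay lower, with a median of -0.60. MBTPS1 is the site-1 protease, which cleaves membrane-bound transcription factors in the Golgi. Its control libraries had 124, 122, 125 and 124 CPM and its knockout libraries 76.3, 77.4, 80.3 and 78.9 CPM, a log2 ratio of -0.66 ± 0.04 (SE). MAP1LC3B, an LC3 protein that coats autophagosomes, had 113, 120, 118 and 117 CPM in the control and 86.3, 87.1, 90.01 and 88.9 CPM in the knockout, -0.41 ± 0.04 (SE). MBTPS1 libraries were tight within each group, and its shift exceeded that of MAP1LC3B. EMC8, of the membrane protein insertion complex of the endoplasmic reticulum, stood at -0.58 ± 0.08 (SE). ZDHHC7, a palmitoyltransferase of the Golgi, stood at -0.54 ± 0.05, VPS9D1 at -0.61 ± 0.13, DEF8, which acts at lysosomes, at -0.59 ± 0.07, and TRAPPC2L, a TRAPP subunit, at -0.85 ± 0.07 (SE).

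The 5 genes of the ubiquitin pathway all lay lower, with a median of -0.53. USP10, a deubiquitinase, had 230, 240, 241 and 236 CPM in the control and 150, 165, 155 and 150 CPM in the knockout, at -0.61 ± 0.04 (SE). KLHL36, of the Kelch family of ubiquitin ligase adaptors, had 38.3, 43.7, 34.5 and 43.7 CPM in the control and 28.3, 28.1, 33.7 and 30.3 CPM in the knockout, at -0.41 ± 0.07 (SE). Knockout library 3 of KLHL36 came close to the lowest control library, while those of USP10 were far below. FBXO31, RNF166 and KLHDC4 stood at -0.52 ± 0.06, -0.53 ± 0.07 and -0.66 ± 0.07 (SE).

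Of the signalling, channel and cytoskeleton genes, 6 of 8 were called lower, beside 20.2% of all genes, with a median of -0.64. PIEZO1, a mechanically gated ion channel, had 202, 214, 194 and 221 CPM in the control and 114, 107, 115 and 115 CPM in the knockout, at -0.88 ± 0.05 (SE). TUBB3 had 209, 210, 235 and 202 CPM in the control and 143, 140, 150 and 155 CPM in the knockout, at -0.54 ± 0.05 (SE). COTL1, an actin-binding protein, had 136, 150, 146 and 152 CPM in the control and 135, 135, 151 and 139 CPM in the knockout, with a log2 ratio of -0.06 ± 0.04 (SE). The groups of COTL1 overlapped, unlike those of PIEZO1 and TUBB3, although COTL1 lies inside the stretch between TAF1C and KLHL36. NECAB2, a neuronal calcium-binding protein, also overlapped, with 5.36, 5.22, 4.27 and 7.13 CPM in the control and 6.65, 5.90, 6.62 and 5.79 CPM in the knockout (0.18 ± 0.14, SE). PLCG2, a phospholipase of immune receptor signalling, stood at -0.74 ± 0.10, the signalling adaptor CMIP at -0.41 ± 0.05, and GAS8, of the complex that regulates dynein in cilia and the last member of the list, at -0.83 ± 0.10 (SE).

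Of the 6 metabolic enzymes, 5 were tested and 4 lay lower. APRT recycles adenine. It had 96.2, 104, 110 and 106 CPM in the control and 64.3, 59.6, 63.9 and 68.4 CPM in the knockout, at -0.70 ± 0.05 (SE). HSDL1, of the hydroxysteroid dehydrogenase family, stood at -0.62 ± 0.05, MTHFSD at -0.87 ± 0.07 and CYBA, the p22 subunit of NADPH oxidase, at -0.48 ± 0.05 (SE). BCMO1, which cleaves beta-carotene, was the kept gene of lowest mean count, 15.9, and overlapped, at 0.06 ± 0.23 (SE). Just under the mean count of 10, CRISPLD2 had 4.5 counts on average, with 2 to 9 in single libraries. ZNF469 also had 2 to 9 counts, WFDC1 and CDH13 had 0 to 3, and HSD17B2 had 0 to 2, so no change could be read for these 5 genes. The 3 listed genes of adhesion and secretion, CDH13, WFDC1 and CRISPLD2, are all among them. Of the 3 little described genes, KIAA0513 (-0.40 ± 0.09, SE) and SPATA2L (-0.66 ± 0.15) lay lower, and C16orf46 (-0.18 ± 0.18) did not pass.

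GALNS, a lysosomal sulfatase, had the lowest ratio of all members against the knockout's own control set. Its control libraries held 17.3, 18.9, 17.8 and 17.3 CPM and its knockout libraries 7.40, 7.27, 8.15 and 8.22 CPM, a log2 ratio of -1.20 ± 0.08 (SE). The knockout libraries of GALNS were all under the lowest control library by a wide margin. Against the second control set, with 12.1, 11.8, 13.6 and 13.4 CPM, the log2 ratio of GALNS was -0.71 ± 0.08 (SE). Both the size and the rank of GALNS thus depended on the control set. Against the second set, PLCG2 (-0.93 ± 0.10), HSDL1 (-0.90 ± 0.05) and SPIRE2 (-0.88 ± 0.08, SE) were the lowest members. CTU2 also depended on it, at -0.99 ± 0.07 against its own control set and -0.54 ± 0.07 (SE) against the second. SPIRE2, an actin nucleator, stood at -0.99 ± 0.08 against its own control set. PIEZO1 stood at -0.88 ± 0.05 and -0.75 ± 0.05, and MTHFSD at -0.87 ± 0.07 and -0.77 ± 0.07 (SE), own control set first.

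**Figure D4:**
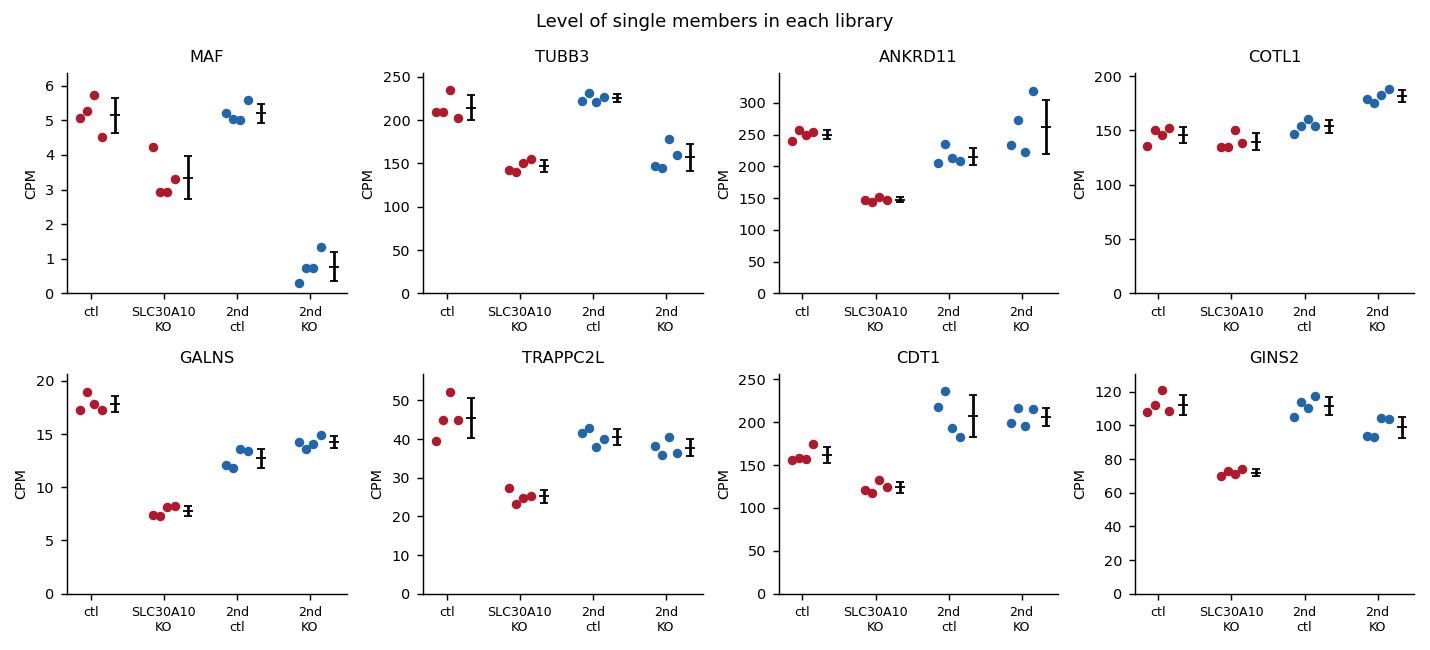
CPM of 8 members in each library, with mean ± SD to the right of the points (red: SLC30A10 experiment, blue: second experiment, n = 4 in each group, axes from 0). MAF and TUBB3 lie lower in both knockouts, ANKRD11 lies lower in the SLC30A10 knockout and higher in the second, and COTL1 overlaps in the SLC30A10 experiment.

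Some members sit head to head or overlap, and the use of strand in the counting is not given in the sources used here. By GENCODE release 29, 21 of the 59 listed members have an exon that overlaps an exon of another counted gene, 19 of them on the opposite strand, and reads there cannot be told apart without strand. The median log2 ratio was -0.64 for these 21 and -0.54 for the 33 other kept members. In 5 pairs the members start within 1000 bases of each other on opposite strands. GALNS and TRAPPC2L, which lie 180 bases apart at the window printed above, stood at -1.20 ± 0.08 and -0.85 ± 0.07 (SE). RNF166 and CTU2, 95 bases apart, differed most, by 0.46 on the log2 scale. CMC2 and CENPN differed by 0.12, FBXO31 and MAP1LC3B by 0.11, and VPS9D1 and ZNF276 by 0.15.

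The choice of control set was examined next. Both comparisons share the knockout libraries, so they are set side by side only. Against the second control set the members had a median log2 ratio of -0.54, with 49 called lower, where 22.7% of all genes were, and 1 called higher, where 21.7% were (44.3% in either direction). The gene called higher was BCMO1, at 0.71 ± 0.26 (SE). Groups lay apart with the knockout below for 46 members, beside 21.5% of all genes. Between the control sets, whose SLC30A10 libraries entered the choice of members, the median log2 difference was 0.088, higher in the SLC30A10 control set, and the summed level was 3652 ± 67.3 against 3579 ± 54.3 CPM (SD, n = 4 in each). Of the 54 members, 23 were called there, 17 higher and 6 lower, beside 39.3% of all genes (18.5% higher and 20.8% lower). CDT1 was among the 6 that lay lower in the SLC30A10 control set, at -0.36 ± 0.06 (SE), and GALNS had a difference of 0.49 ± 0.07 (SE).

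The rule that chose the genes did not use the libraries of the second knockout and its control set. The members were listed, however, with earlier results of these data known. The comparison of the second knockout with its own control set asks whether distal 16q also differs there. No shift of the stretch as a whole was detected. The 54 members had a median log2 fold change of -0.027, against -0.0024 over all genes. The summed level was 3439, 3510, 3558 and 3597 CPM in the knockout and 3526, 3653, 3555 and 3584 CPM in the control. The groups overlap, and the difference of -53.56 CPM in their means was within the spread (exact permutation test over libraries, two-sided, p = 0.286; the design allows no p below 0.0286). The difference ran from -77.29 to -24.52 CPM when single libraries were left out (-24.52 without knockout library 1, -29.08 without control library 2) and was -24.27 CPM when library totals set the scale. The sum weighs abundant members most, so this test speaks for the summed level only. Mean CPM in knockout and control was 157 and 225 for TUBB3, 262 and 215 for ANKRD11, and 181 and 154 for COTL1. Single members did change. Of the 54, 9 passed the threshold (edgeR quasi-likelihood, Benjamini-Hochberg), beside 13.7% of all genes. The share of 16.7% is near that background. There were 6 lower, where 7.03% of all genes were lower, and 3 higher, where 6.67% were. Before adjustment, 15 members had a p under 0.05 (edgeR quasi-likelihood). The share of all genes at that unadjusted level was not counted, so nothing is read from it. Groups lay apart for 7 members with the knockout below, beside 8.69% of all genes, and for 4 with the knockout above, beside 7.6%.

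MAF fell most. The control libraries had 5.20, 5.03, 5.002 and 5.59 CPM and the knockout libraries 0.312, 0.736, 0.727 and 1.33 CPM. All knockout libraries are far below the control libraries, and they vary among themselves at this low level. On the log2 scale MAF changed by -2.73 ± 0.21 (SE; adjusted p 1.13e-10, edgeR quasi-likelihood), and its fold change stayed between -3.11 and -2.47 in 15 alternatives. TUBB3 fell from 222, 232, 221 and 227 CPM to 147, 144, 178 and 159 CPM. Its groups do not overlap, and its log2 fold change of -0.52 ± 0.05 (SE, adjusted p 3.01e-08 by edgeR quasi-likelihood) stands beside -0.54 ± 0.05 in the SLC30A10 knockout. Since the latter contrast chose the gene, these values of TUBB3 are set side by side only.

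Smaller falls were called for 4 other members. CMC2 fell from 35.8, 32.1, 32.7 and 34.3 CPM to 29.99, 27.96, 29.8 and 27.7 CPM (-0.22 ± 0.06 on the log2 scale, SE, adjusted p 0.013, edgeR quasi-likelihood). GINS2 fell from 105, 114, 110 and 117 CPM to 93.6, 93.3, 105 and 104 CPM (-0.18 ± 0.05, SE, adjusted p 0.0138, edgeR quasi-likelihood). The groups of CMC2 and GINS2 did not overlap, though by little. HSDL1 fell from 91.8, 88.02, 80.1 and 89.9 CPM to 78.99, 80.8, 76.3 and 72.4 CPM (-0.18 ± 0.05, SE, adjusted p 0.0166, edgeR quasi-likelihood). SPIRE2 had 15.1, 16.9, 17.5 and 17.9 CPM in the control and 15.5, 12.6, 14.5 and 14.6 CPM in the knockout (-0.24 ± 0.08, SE, adjusted p 0.0383, edgeR quasi-likelihood). The groups of both genes overlap. The call of SPIRE2 was lost in 11 of 15 alternatives. CMC2 lost its call without control library 1 (adjusted p 0.0559) or knockout library 2 (0.0523). GINS2 lost it without control library 4 or knockout library 1 or 2 (up to 0.0828), and HSDL1 without control library 1 or 4 or knockout library 4 (up to 0.0668, all edgeR quasi-likelihood).

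ANKRD11, COTL1 and CDK10 rose in the second knockout. ANKRD11 had 205, 235, 213 and 208 CPM in the control and 234, 273, 223 and 318 CPM in the knockout, 0.28 ± 0.07 on the log2 scale (SE, adjusted p 0.00526, edgeR quasi-likelihood). Its knockout libraries spread widely, and the groups overlap. In the alternatives the log2 fold change of ANKRD11 ran from 0.18, without knockout library 4, to 0.356, without knockout library 3. COTL1 rose from 146, 154, 161 and 154 CPM to 179, 175, 183 and 188 CPM (0.24 ± 0.04, SE, adjusted p 0.000296, edgeR quasi-likelihood). CDK10 rose from 50.2, 52.6, 55.6 and 49.9 CPM to 59.1, 58.2, 66.1 and 63.3 CPM (0.24 ± 0.06, SE, adjusted p 0.00657, edgeR quasi-likelihood). For COTL1 and CDK10 every knockout library lies above every control library. These 3 calls held in all 15 alternatives.

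Partners of the members that are encoded outside the stretch were counted to see how genes of the same complexes stood away from it. Genes on the rest of 16q, where 35% of tested genes were called lower, were not left out. The list held 92 genes, such as the other GINS and MCM subunits, the origin recognition complex, the other Fanconi genes, the TRAPP and EMC subunits and the autophagy conjugation genes, of which 88 were tested. In the SLC30A10 knockout their median log2 fold change was -0.0030. Of the 88, 21 were called lower and 15 higher, in all 40.9%, beside 41.4% of all genes (edgeR quasi-likelihood, Benjamini-Hochberg). A 1.5-fold change was reached by 1 partner, TRAPPC6A, a subunit of the TRAPP tethering complex, with 4.51, 3.76, 3.48 and 5.49 CPM in the control and 8.33, 7.58, 7.48 and 7.78 CPM in the knockout (0.85 ± 0.15, SE, adjusted p 4.52e-05, edgeR quasi-likelihood). The knockout libraries of TRAPPC6A lay within the range of the second control set, 9.73, 9.52, 6.15 and 6.56 CPM.

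Over all tested genes, 20.2% were called lower and 21.2% higher in the SLC30A10 knockout. The counts per complex below are small, and nothing is read from them about a complex. The 10 tested partners of GINS2 had 2 called lower and a median of -0.064. The 8 of CDT1 had 4 lower and 1 higher (-0.070), and the 9 of CENPN had 3 higher (0.081). The 9 partners of FANCA had 2 lower and 2 higher (0.076), the 9 of EMC8 had 2 lower and 1 higher (0.0056), and the 12 of TRAPPC2L had 1 lower and 3 higher (0.0049). The 9 partners of MAP1LC3B had 4 lower and 1 higher (-0.071), and the 5 of MBTPS1 had 3 lower and 1 higher (-0.14). Both partners of USP10 were called lower (-0.16). The single partners of APRT and CDK10, HPRT1 at 0.40 ± 0.04 and FAM58A at 0.53 ± 0.08 (log2, SE), were called higher. The 13 remaining partners, of 5 other members, had 1 lower and 1 higher. In the second knockout 5 of 88 partners were called, 2 lower and 3 higher, which is 5.68% beside 13.7% of all genes. AMT, the aminomethyltransferase that works with GCSH in glycine cleavage, was the only one of these at 1.5-fold. It rose from 3.73, 4.12, 3.68 and 4.01 CPM to 6.17, 5.89, 6.18 and 5.57 CPM (0.61 ± 0.14, SE, adjusted p 0.0021, edgeR quasi-likelihood), and its groups do not overlap.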

How the data were processed

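The deposited table holds whole-number counts per gene symbol for 16 libraries of poly-A RNA. HISAT2, featureCounts and DESeq2, with hg38/GRCh38, are named per the submitters' processing notes, without versions; annotation and strand are not given in the sources used here. A second deposited table, in which each library's counts are multiplied by a constant, was not used. The members and gene lists were chosen with earlier results of these data known.

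The expression filter of edgeR (minimum count 10, minimum total 15) left 15569 genes, and trimmed-mean (TMM) factors scaled the libraries. All 16 libraries were fitted together with a mean per group (edgeR 4.0.16, R 4.3.3), with quasi-likelihood F tests and Benjamini-Hochberg adjustment over all tested genes. The threshold was an adjusted p of 0.05. The procedure was tested on simulated counts. CPM use scaled library sizes. Per-library log2 ratios had 0.1 CPM added. Summed levels were compared by exact permutation. DESeq2 1.42.0 was an alternative.

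Replicate pairs differed by 1.64 to 6.83 chi-square per degree of freedom, above sampling noise, and no library was counted as a repeat. Floors of 3 counts cover counting error only.

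Of the 59 symbols, 57 matched RefSeq GRCh38.p14 directly and 2 by an older symbol. Named genes are MAF, the 5 lowest and 5 highest log2 ratios in the SLC30A10 knockout among members of at least 5 CPM, members called in the second knockout, the 2 of highest mean CPM per role, the genes next to the mean count of 10, members at 3 counts or fewer throughout a group, and partners called at 1.5-fold. Other genes named were chosen after their values were seen.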

Additional observations from a re-analysis of the deposited data

Results flagged for a closer look

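A test for stray values (Dixon's, at the 95% limit) was run on the CPM of the 54 members and on their sum, in each group of 4 libraries. It marked 12 of 220 such sets, and chance gives about 11 of 220. Beside each CPM stands its distance from the closest other library divided by the range. In the SLC30A10 knockout, library 1 was low for MPHOSPH6, at 21.8 CPM against 27.2 to 28.2 in the others (0.846), and high for CYBA, at 44.7 CPM against 39.2 to 39.6 (0.917). Library 2 was low for PIEZO1, at 107 CPM against 114 to 115 (0.835). In the SLC30A10 control set, MBTPS1 was low in library 2, at 122 CPM against 124 to 125 (0.845). KLHDC4 was high in library 3, at 27.3 CPM against 23.5 to 24.1 (0.834), and CDT1 was high in library 4, at 175 CPM against 156 to 159 (0.851). In the second knockout, library 1 was high for PLCG2, at 15.5 CPM against 13.8 to 14 (0.89), and low for ZFPM1, at 6.86 CPM against 9.2 to 9.38 (0.929). Library 3 was low for USP10, at 210 CPM against 227 to 228 (0.935), and high for PIEZO1, at 197 CPM against 188 to 189 (0.92). In the second control set, library 1 was low for ZCCHC14, at 99.5 CPM against 108 to 109 (0.955), and for VPS9D1, at 3.3 CPM against 4.04 to 4.07 (0.957).

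A test of the difference of the knockout effects called 26 of the 88 partner genes (edgeR quasi-likelihood, Benjamini-Hochberg). This is 29.5%, beside 31.3% of all tested genes, with 14 negative and 12 positive differences. Of these, 2 reached 1.5-fold, TRAPPC6A and AMT. TRAPPC6A had a difference of the log2 effects of 0.984, SLC30A10 knockout minus second knockout, with an SE of 0.20 (adjusted p 0.000455, edgeR quasi-likelihood). The mean level of TRAPPC6A was 4.31 ± 0.898 CPM in the SLC30A10 control set and 7.99 ± 1.90 CPM in the second (SD, n = 4). AMT had a difference of -0.865, with an SE of 0.21 (adjusted p 0.00203, edgeR quasi-likelihood). AMT had 2.93 ± 0.204 CPM in the SLC30A10 knockout and 3.49 ± 0.930 CPM in its control (SD, n = 4).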

How the results depend on the processing

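The median log2 ratio of the members in the SLC30A10 knockout was -0.581, lay between -0.613 and -0.553 when single libraries were left out, and moved to -0.544 with the second control set as reference. Between 48 and 50 members were called there without single libraries. In the second knockout 6 to 8 members were called without single libraries, against 9. The count of partner genes called in the second knockout was 5, fell to 3 when only the 8 libraries compared were fitted and ranged from 2 to 7 when single libraries were left out. It was 2 without control library 3 or knockout library 2, and 3 without control library 4. Of the 33 other tested genes of the stretch, 8 were called in the second knockout, 24.2% beside 13.7% of all genes. There were 5 lower (15.2% beside 7.03% of all genes) and 3 higher (9.09% beside 6.67%). Without single libraries 4 to 6 of these genes were called, with 4 without knockout library 2. Fits with DESeq2, other scalings, other filters and members of at least 100 counts kept the other counts within 1.5 times of the main ones and the medians within the spread between libraries. Among the 56 results of single named genes, 5 lost a call and 2 gained one in some alternative, and none changed direction with a call. With the replicate block, 50 members were called in the SLC30A10 knockout, 9 in the second knockout and 24 between the control sets, and the median ratio stayed at -0.581. Within same-numbered pairs the summed level of the second knockout differed by -53.56 CPM (exact permutation p = 0.5; no p below 0.125 can be reached). The replicate numbers come from the titles. Libraries of the same number had mean correlations of their deviations of -0.0318 and 0.0472 in the experiments and 0.0179 between the control sets. Between the control sets, 3 of 4 libraries correlated best with the library of their own number, against 0 and 1 of 4 in the experiments. The numbers were not used to pair libraries in the main fit. Genes at a few CPM, such as MAF and BCMO1, have wider errors at this depth than the median member.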

Other observations

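A few other genes at or near the stretch were changed in the second knockout and were chosen after their values were seen. IRF8, a transcription factor of blood cells that lies at chr16:85899162-85922609, had 3.85, 5.39, 4.76 and 4.92 CPM in the control libraries and 0 to 1 counts in the knockout libraries, at least 25.8-fold lower against a floor of 3 counts per library. In the SLC30A10 knockout IRF8 had 4.29, 5.59, 4.60 and 4.79 CPM against 4.87, 6.43, 6.40 and 5.67 CPM in the control and did not pass the threshold. FOXF1, a forkhead factor of mesenchyme, fell from 10.5, 10.8, 10.4 and 10.2 CPM to 4.86, 5.64, 5.99 and 5.09 CPM in the second knockout, a log2 fold change of -0.96 ± 0.10 (SE, adjusted p 5.7e-08, edgeR quasi-likelihood). WWOX fell from 8.87, 9.21, 8.74 and 8.81 CPM to 5.30, 6.87, 6.12 and 6.18 CPM there (-0.54 ± 0.09, SE, adjusted p 0.000103, edgeR quasi-likelihood). The groups of all 3 genes are apart. Of the members between MAF and IRF8, CMC2, HSDL1 and GINS2 also passed in that comparison as lower, and COTL1 passed as higher. Others, such as CENPN (-0.03 ± 0.05) and USP10 (0.02 ± 0.04), did not pass.

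Within the stretch, 2 genes that are no members were called higher in the SLC30A10 knockout. SLC22A31, a solute carrier family member, had 4.14, 3.58, 2.74 and 4.33 CPM in the control and 6.77, 5.34, 6.38 and 4.67 CPM in the knockout. CBFA2T3, a transcriptional corepressor, had 0.244, 0.425, 0.183 and 0.183 CPM in the control and 0.932, 0.746, 0.858 and 0.560 CPM in the knockout, at under 1 CPM throughout. SLC7A5, a large neutral amino acid transporter, had 430, 471, 513 and 441 CPM in the control and 205, 193, 224 and 217 CPM in the knockout (-1.14 ± 0.12, SE), and its second control libraries held 322, 385, 337 and 283 CPM. RPL13, a ribosomal protein gene and the most abundant gene of the stretch by CPM, had 1030, 1027, 1098 and 1081 CPM in the control and 992, 917, 1004 and 960 CPM in the knockout (-0.13 ± 0.04, SE), a smaller difference than the median member's.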
